A study of Mus musculus with 19 samples.

Results

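Solute carriers are membrane proteins that move sugars, amino acids, ions and organic molecules into and out of cells. The genes described here are the 100 mouse solute carriers of the families Slc2, Slc5, Slc6, Slc7, Slc9, Slc12, Slc22 and Slc34 that are listed in both deposited tables, out of 20103 genes named in both. They were chosen by symbol alone, as a family name followed by the letter a and a number, so no measured value decided membership. Of the 100 genes, 50 had a mean of at least 1 RPKM (reads relative to gene length and library depth) in at least 1 of the 7 groups, and these are described one family at a time. The other 50 stayed below that level in every group, and 21 of them were below 0.1 in every group. Just outside the threshold lay Slc22a13, with 0.997 in unsorted cells, and Slc5a2, with 0.891 in SIX2- cells. Just inside lay Slc22a15, with 1.05 in Tdt- cells, and Slc22a8, with 1.08 in SIX2- cells.

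RNA sequencing of embryonic kidney cells from CFW mice gave 19 libraries, to compare progenitors of the nephron with those of the stroma. At E16.5 (days of embryonic development), cells of the nephrogenic zone (NZC, the outer rim of the kidney) with no engineered allele were sorted into SIX2+ and SIX2- cells, and unsorted NZC were profiled beside them, with 3 libraries each. These libraries carry the title prefix mMARIS, the name of a method for sorting fixed cells on an intracellular protein. Also at E16.5, GFP+ and GFP- cells came from kidneys with the allele Six2TGC/+, in which Six2 regulatory sequences drive a GFP reporter, with 3 libraries each. At E14.5, Tdt+ and Tdt- cells came from Foxd1Cre;Tdt kidneys, in which a cell that has expressed Foxd1 and its descendants carry a red reporter, with 2 libraries each. Both fractions of a reporter sort carry the allele. Each negative fraction is a mixture of other cell types of the tissue that was sorted, not always in the same shares. Listed erythroid genes summed to 5.79 to 23.6 RPKM in SIX2- libraries. Their sum was 445 to 4721 in unsorted NZC and 1249 to 12985 in GFP- libraries. Nothing in the labels says whether replicates were separate animals, and a p-value here reflects no more than the scatter of these samples, which could be technical. In such sorted bulk samples, fewer cells of a type and less RNA per cell cannot be told apart.

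In the mature kidney the first stretch of the nephron, the proximal tubule, recovers glucose, amino acids and phosphate through carriers of its apical membrane and passes them to the blood through carriers of its basolateral membrane. Later segments recover sodium chloride through the Slc12 cotransporters, and Slc22 carriers secrete organic anions and cations. Progenitors have formed no tubule yet, and like other growing cells they take up glucose and amino acids through carriers of wide distribution.

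The label genes separated the fractions. Six2 was at 301, 295 and 458 RPKM in the SIX2+ libraries, against 4.43, 7.59 and 46.8 in the SIX2- libraries, and at 312, 348 and 346 in the GFP+ libraries, against 2.7, 2.88 and 16.8 in the GFP- libraries. Foxd1 was at 205 and 102 in the Tdt+ libraries, against 29.9 and 25.2 in the Tdt- libraries. Of 14 stromal markers, 3 were called higher and 2 lower in Tdt+ over Tdt- cells (limma, adjusted p under 0.05), and 9 were not called. All genes tested gave 1.22% higher and 7.21% lower. The stromal markers summed to 2000 and 2873 RPKM in the Tdt+ libraries, against 2591 and 3547 in the Tdt- libraries. The third SIX2- library had the highest Six2 of its group. Estimated depth was 26000000 to 45200000 reads in the E16.5 libraries other than NZC library 2, which had 3130000, and was 9230000 and 8410000 reads in the Tdt+ libraries, against 29900000 and 26600000 in the Tdt- libraries. At 1 RPKM a member of the median exonic length, 4.84 kilobases, had an estimated 126 to 219 reads in the sorted E16.5 libraries, 15.2 in NZC library 2, 40.7 and 44.7 in the Tdt+ libraries and 129 and 145 in the Tdt- libraries.

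Promoter windows of RefSeq (build GRCm38.p6) were matched by symbol to 73 of the 100 members and to 34 of the 50. The 4 sequences below are the 250 bases upstream of a start site, 5′ to 3′ on the gene's own strand, with each CpG dinucleotide in capitals. Slc34a1 and Slc22a6 are shown as proximal tubule carriers that were lower in SIX2+ cells, and Slc7a1 and Slc7a6 as amino acid carriers present in every group.
Slc34a1, chr13:55399398-55399647, plus strand: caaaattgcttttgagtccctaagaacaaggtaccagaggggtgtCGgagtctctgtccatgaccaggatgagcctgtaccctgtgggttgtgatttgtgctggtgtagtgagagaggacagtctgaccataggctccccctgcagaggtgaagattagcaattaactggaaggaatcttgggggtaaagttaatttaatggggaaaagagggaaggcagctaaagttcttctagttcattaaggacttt
Slc22a6, chr19:8617746-8617995, plus strand: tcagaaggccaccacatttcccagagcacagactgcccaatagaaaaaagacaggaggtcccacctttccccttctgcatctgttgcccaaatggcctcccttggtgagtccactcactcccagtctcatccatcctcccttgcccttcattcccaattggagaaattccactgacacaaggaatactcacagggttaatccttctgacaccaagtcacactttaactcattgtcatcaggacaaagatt
Slc7a1, chr5:148399905-148400154, minus strand: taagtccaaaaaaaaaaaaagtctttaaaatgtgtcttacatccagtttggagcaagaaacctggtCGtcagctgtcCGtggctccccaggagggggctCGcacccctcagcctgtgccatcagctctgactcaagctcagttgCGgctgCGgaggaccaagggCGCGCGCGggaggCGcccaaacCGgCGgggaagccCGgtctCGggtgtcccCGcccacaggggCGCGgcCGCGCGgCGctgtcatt
Slc7a6, chr8:106168671-106168920, plus strand: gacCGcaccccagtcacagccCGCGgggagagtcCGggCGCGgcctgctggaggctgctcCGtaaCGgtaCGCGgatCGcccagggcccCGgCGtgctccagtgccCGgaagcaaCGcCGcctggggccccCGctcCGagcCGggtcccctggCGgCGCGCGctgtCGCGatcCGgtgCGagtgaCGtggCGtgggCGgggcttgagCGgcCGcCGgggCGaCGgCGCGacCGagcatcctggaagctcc
These stretches hold 1, 0, 21 and 38 CpG in the order given. Over the 22 members listed as proximal tubule carriers, the 16 with a window had a median of 4.5 CpG, and 4 of them (25%) held at least 10. Over the 14 members listed for growth and housekeeping uptake, the 8 with a window had a median of 20.5, and 7 of them (87.5%) held at least 10. Over all 27025 genes with a window the median was 6, and 40.2% held at least 10. For a gene with several windows the one with the most CpG was taken, which can raise the figure of genes with more windows. Members had 98 windows for 73 genes, beside 32851 windows for all 27025 genes. CpG was counted after the motif search had been seen, and these figures are a description without a test. The motif search looked on both strands of the whole 300-base windows for the letters GTTAATNAT (bound by HNF1 factors), CAAAGTCCA (HNF4) and TGATGNAAT (ATF4). Of the 98 windows of members, 1 held the HNF1 letters, that of Slc22a29, and 0 held the HNF4 or ATF4 letters. Among all 32851 windows 0.801%, 0.475% and 0.965% held them, in the same order.

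A few carriers made up a large share of the transcript level. On the RPKM scale, which allows for gene length, Slc22a17, Slc12a2 and Slc2a1 together made up 41.2% of the members' summed level in SIX2+ cells. In GFP+ cells Slc12a2, Slc22a17 and Slc2a1 made up 49.1%, with 27.0% from Slc12a2 alone. In SIX2- cells the 3 highest, Slc2a1, Slc22a17 and Slc7a5, made up 25.2%, and in GFP- cells Slc2a1, Slc6a6 and Slc22a17 made up 23.5%. The summed level of the 100 members was 342 to 387 RPKM in SIX2+ libraries, against 304 to 324 in SIX2- libraries. It was 346 to 468 in GFP+ libraries, against 269 to 309 in GFP- libraries. It was 276 and 369 in the Tdt+ libraries, against 410 and 419 in the Tdt- libraries. At a mean of at least 1 RPKM stood 32 members in SIX2+ cells, 41 in SIX2- cells, 43 in unsorted NZC, 31 in GFP+ cells, 33 in GFP- cells, 32 in Tdt+ cells and 38 in Tdt- cells.

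**Figure D1:**
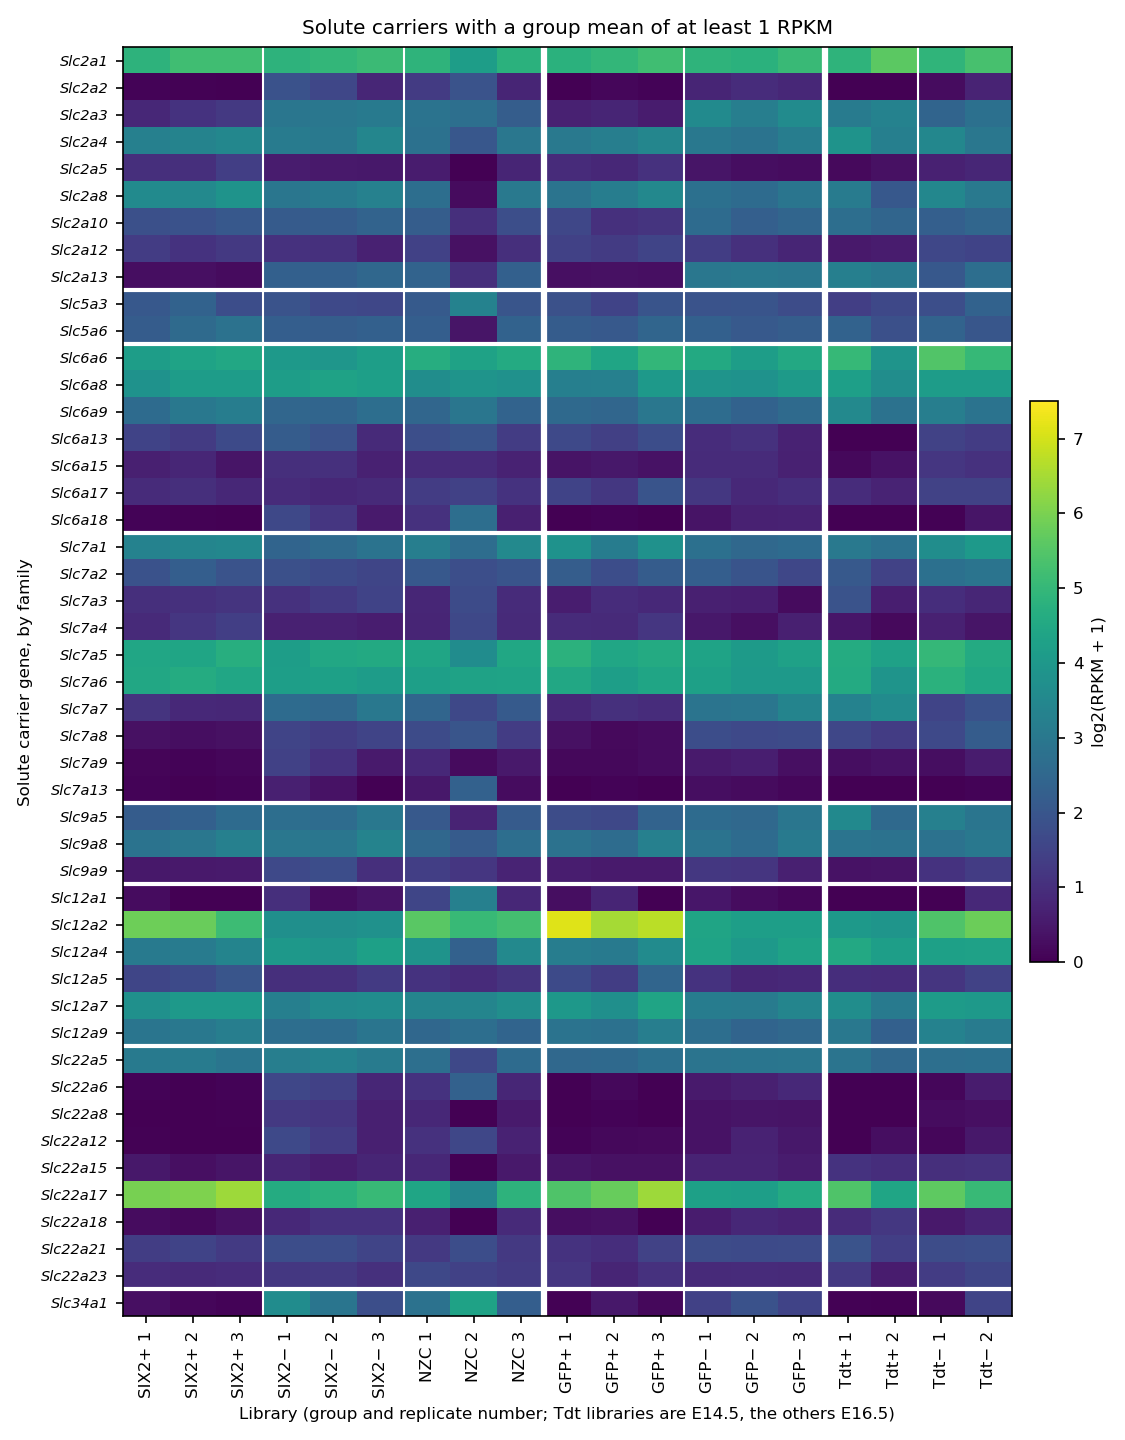
Level of 47 members with a mean of at least 1 RPKM in any group (rows, by family) in each of the 19 libraries (columns, with the positive fraction left of the negative one), as log2(RPKM + 1). Slc12a2 and Slc22a17 are the brightest rows in the SIX2+ and GFP+ libraries, and NZC library 2 differs from the other NZC libraries in many rows.

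Of the 100 members, 44 passed the filter on low values at E16.5 and 37 at E14.5, so the counts that follow cover those genes and not every member. Some genes were under 1 RPKM in every SIX2+ and GFP+ library and passed only through the other groups. Among them were Slc34a1, Slc22a12, Slc6a18, Slc2a2, Slc22a6, Slc7a8, Slc2a13 and Slc9a9. Such a gene could not be called higher in SIX2+ or GFP+ cells, and the direction of such calls is no finding about these genes as a group. Slc2a5, in turn, passed only through SIX2+ and GFP+ libraries and could not be called lower in SIX2+ over SIX2- cells. In SIX2+ over SIX2- cells 4 of the 44 were higher and 10 lower (limma, Benjamini-Hochberg adjusted p under 0.05 over all genes tested). That is 31.8% of the members tested, beside 24.2% of the 12798 genes tested (8.36% higher, 15.9% lower). In GFP+ over GFP- cells 7 were higher and 10 lower, 38.6% of the members tested, beside 32.9% of all genes (15.9% higher, 17% lower). Both shares were close to the background, and the median log2 fold change of the members was -0.07 and 0.06 in these comparisons, beside 0.04 and 0.09 for all genes. The SIX2 antibody and the GFP reporter share 11 of these calls, 4 higher and 7 lower. That is 78.6% of the 14 calls of the first and 64.7% of the 17 of the second, and 0 members were called in opposite directions. The same shares over all genes tested were not counted, so these are no finding about the members. Among the shared calls, Slc34a1, Slc2a2, Slc7a8, Slc2a13 and Slc2a5 passed the filter only through groups where they are high, so their shared direction is no finding. Other cell types moved with these sorts: all 14 stromal markers were lower in SIX2+ and in GFP+ cells, as were 9 of 10 leukocyte markers in each and 9 and 8 of 10 endothelial markers, and their part in the members' differences was not tested. The count of members higher in SIX2+ cells depended on the fit: it was 7 with the replicate numbers as a block, which added Slc12a5 (adjusted p = 0.0429), Slc12a7 (0.0118) and Slc7a6 (0.0325), 8 with NZC library 2 left out of the fit, which added Slc2a8, Slc7a4, Slc7a6 and Slc12a5, and 2 with SIX2+ replicate 2 or 3 or SIX2- replicate 1 or 2 left out. In GFP+ over GFP- cells leaving NZC library 2 out of the fit added Slc7a4, Slc7a5 and Slc12a9 to the higher members and Slc6a18, Slc9a5, Slc22a5 and Slc22a6 to the lower ones. The count of members lower in GFP+ cells was 5 without GFP+ replicate 2 or GFP- replicate 1, and 6 without GFP+ replicate 1 or GFP- replicate 2 or 3.

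**Figure D2:**
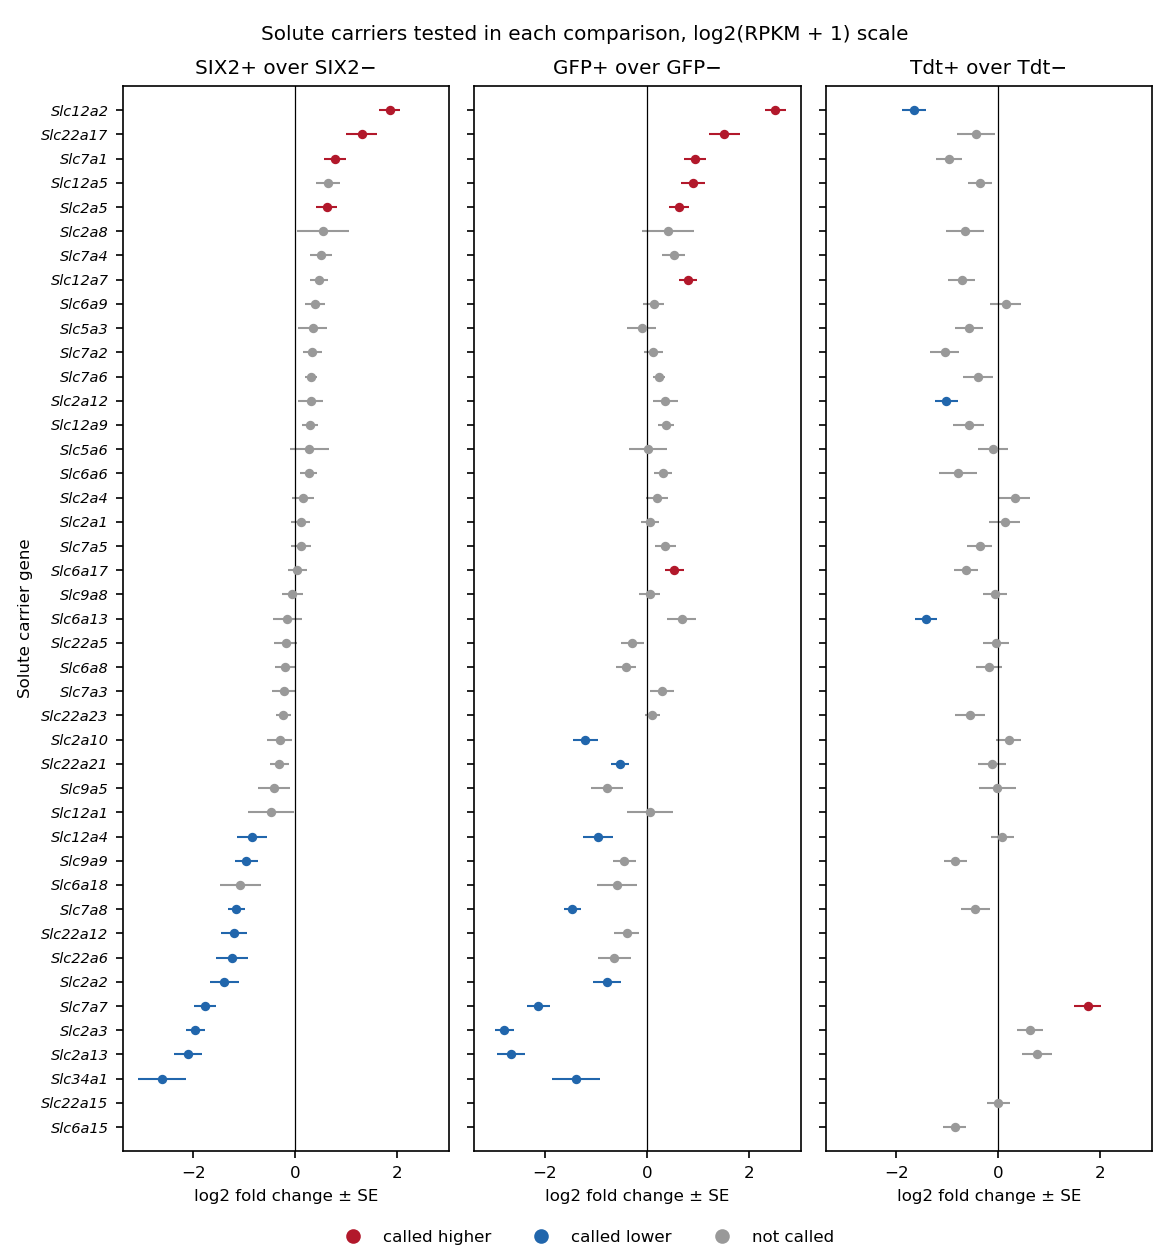
Log2 fold change on the log2(RPKM + 1) scale, with its standard error from the limma fit (bars), of members tested in SIX2+ over SIX2-, GFP+ over GFP- and Tdt+ over Tdt- cells. Red points were called higher and blue points lower at an adjusted p under 0.05, grey points were not called, and a gap means that the gene did not pass the filter of that table. Slc12a2, the top row, has the largest positive value in the first 2 panels (1.85 and 2.52) and the most negative in the third (-1.65).

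In the Slc34 family, which carries sodium and phosphate together, 1 of 3 members reached the threshold. Slc34a1, the main phosphate carrier of the proximal tubule brush border (chromosome 13, 55398187 to 55415592 in GRCm38), was at 0.249, 0.0851 and 0.0449 RPKM in SIX2+ libraries, against 11.5, 6.51 and 2.48 in SIX2- libraries. It was at 0.0229, 0.408 and 0.111 in GFP+ libraries, against 1.75, 2.72 and 1.82 in GFP- libraries. The highest SIX2+ or GFP+ library, at 0.408, was below the lowest SIX2- or GFP- library, at 1.75. The log2 fold change was -2.62 ± 0.47 (SE) in SIX2+ over SIX2- cells (adjusted p = 0.000774) and -1.39 ± 0.47 in GFP+ over GFP- cells (0.0346). The second call was lost without any 1 of the 6 GFP-sorted libraries, with adjusted p between 0.0539 (without GFP+ replicate 2) and 0.109 (without GFP- replicate 2), and with a pseudocount of 5 (0.282), quantile normalisation (0.136) or no filter (0.0661). Unsorted NZC had 6.05, 19 and 3.76, with the highest value of the series in library 2. Slc34a1 did not pass the E14.5 filter, with 0.0342 and 0 in the Tdt+ libraries, against 0.138 and 1.9 in the Tdt- libraries. Of its exonic length 11.7% overlaps Pfn3 on the opposite strand, and strand handling in counting is not given in the sources used here.

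Of the 24 members of the Slc22 family, which carries organic ions, 9 reached the threshold. Slc22a6 and Slc22a8 (OAT1 and OAT3) take organic anions up from the blood and lie 6204 bases apart on chromosome 19. Slc22a6 was at 0.0545, 0.0109 and 0.0459 RPKM in SIX2+ libraries, against 2.04, 1.74 and 0.737 in SIX2- libraries, a log2 fold change of -1.23 ± 0.31 (adjusted p = 0.00981). Without SIX2- replicate 1, the library with its highest level, the adjusted p was 0.0522. It was 0.0545 with a pseudocount of 5 and 0.154 after quantile normalisation. Slc22a8 did not pass the filter, with 0.0104, 0.00623 and 0.0263 in SIX2+ libraries, against 1.37, 1.27 and 0.592 in SIX2- libraries. Slc22a12, the apical urate exchanger URAT1, was at 0.0324, 0 and 0, against 2.13, 1.52 and 0.582 in the same order, and fell by 1.20 on the log2 scale (SE 0.25, adjusted p = 0.0025). Of its exonic length 30.1% overlaps Nrxn2 on the opposite strand. Over these 3 genes the highest SIX2+ value was 0.0545 and the lowest SIX2- value 0.582. The GFP- libraries had 0.461, 0.58 and 0.806 of Slc22a6 and 0.295, 0.658 and 0.389 of Slc22a12, and neither call was made in GFP+ over GFP- cells (log2 fold change -0.63 ± 0.31, adjusted p = 0.143, and -0.39 ± 0.25, 0.252). Slc22a6 was called lower there with NZC library 2 left out of the fit (0.0142), after rescaling to TPM (0.0207) or with a pseudocount of 0.1 (0.0057), and Slc22a12 with a pseudocount of 0.1 (0.0492).

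Slc22a17, a receptor for siderophore-bound lipocalin whose transport substrate is not established, had the highest level of any member in SIX2+ cells (chromosome 14, 54906304 to 54913132, minus strand). It was at 60.8, 64.8 and 83.2 RPKM in SIX2+ libraries, against 23.6, 26.8 and 32.5 in SIX2- libraries, a log2 fold change of 1.30 ± 0.31 (adjusted p = 0.00566). In GFP+ libraries it was at 42.5, 53.3 and 84.2, against 18.4, 17.3 and 22.9 in GFP- libraries, a log2 fold change of 1.52 ± 0.31 (0.0015). The fractions did not overlap in either sort, and both calls held in each of the 15 alternatives run. At E14.5 it was at 42 and 20.1 in Tdt+ libraries, against 49.1 and 32 in Tdt- libraries, which overlap (-0.43 ± 0.37, adjusted p = 0.524). Without Tdt+ replicate 1 that adjusted p was 0.027, with a lower level in Tdt+ cells. Slc22a5, the carnitine carrier OCTN2, was at a mean of 7.21 in SIX2+ cells, against 8.35 in SIX2- cells, and was not called in any comparison. Slc22a21, a related carnitine carrier of the mouse, was at 1.15, 0.973 and 1.78 in GFP+ libraries, against 2.36, 2.2 and 2.26 in GFP- libraries, and was called lower (-0.52 ± 0.18, 0.0405). That call was lost without any 1 GFP-sorted library other than GFP+ replicate 3, with adjusted p between 0.0798 (without GFP- replicate 3) and 0.146 (without GFP+ replicate 2), and after quantile normalisation (0.348). Slc22a15, Slc22a18 and Slc22a23 had highest group means of 1.05 (Tdt- cells), 1.11 (Tdt+ cells) and 1.76 (unsorted NZC) and were either not tested or not called.

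**Figure D3:**
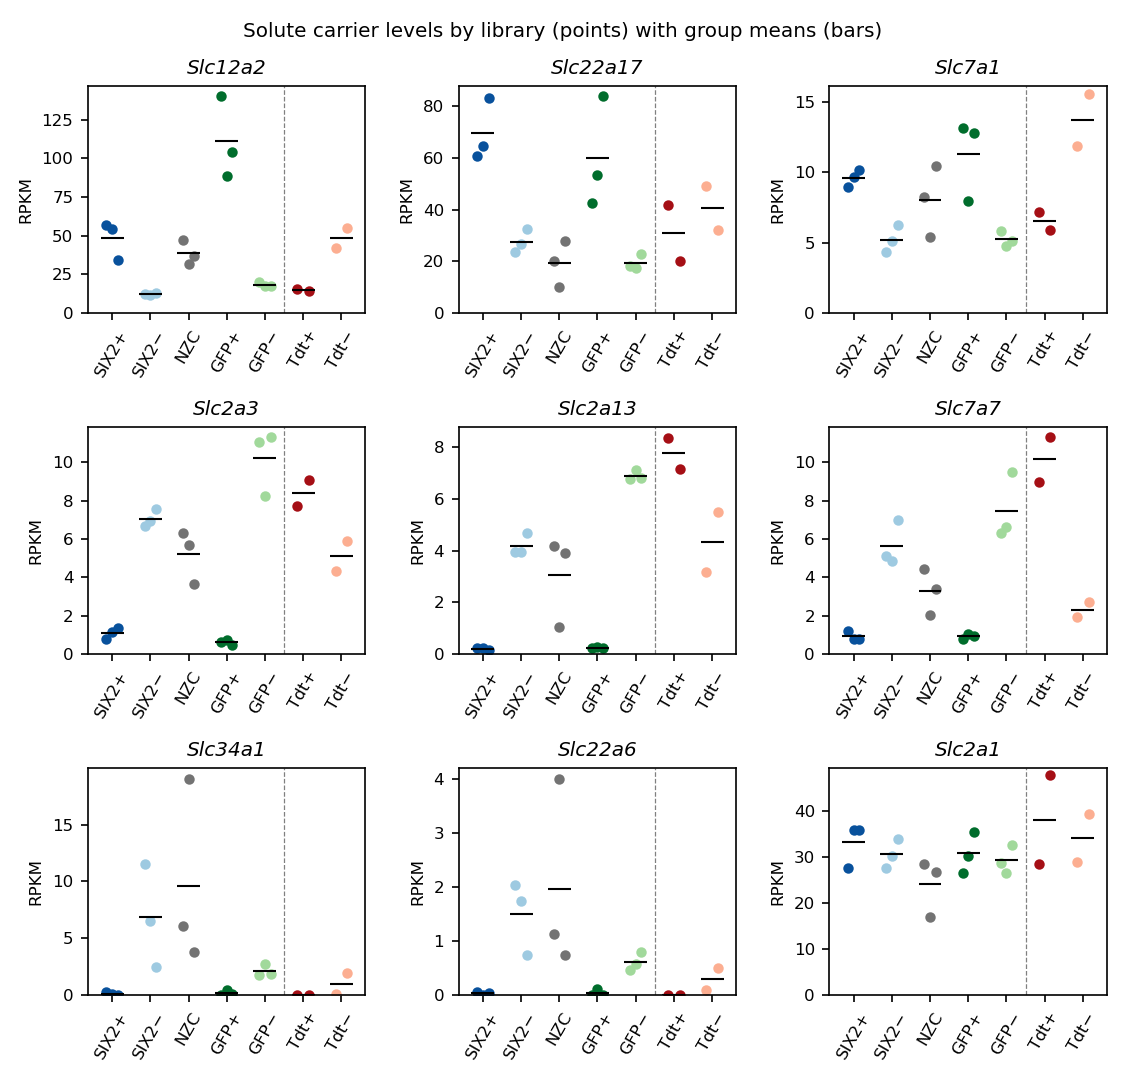
Level of 9 members in RPKM (linear axis from 0) in each of the 19 libraries (points), with a bar at each group mean, the positive fraction left of the negative one, and a dashed line between the E16.5 and E14.5 tables. Slc12a2, Slc22a17 and Slc7a1 are higher in SIX2+ and GFP+ than in SIX2- and GFP- libraries, Slc2a3, Slc2a13, Slc7a7, Slc34a1 and Slc22a6 are lower, and Slc2a1 overlaps between the fractions.

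The Slc2 family, the facilitative sugar carriers (GLUT proteins), had 9 of 12 members at the threshold. Slc2a1 (GLUT1), the basal glucose carrier of most growing cells, was the highest of them in every group. It was at 27.6, 35.9 and 35.8 RPKM in SIX2+ libraries, against 27.6, 30.2 and 33.9 in SIX2- libraries, and at 26.5, 30.2 and 35.5 in GFP+ libraries, against 28.6, 26.5 and 32.6 in GFP- libraries. It was at 28.4 and 47.7 in Tdt+ libraries, against 28.8 and 39.2 in Tdt- libraries. The fractions overlapped in each sort, and the log2 fold changes were 0.11 ± 0.18, 0.07 ± 0.18 and 0.13 ± 0.30 (adjusted p = 0.749, 0.819 and 0.833).

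Slc2a3 (GLUT3), a glucose carrier of high affinity (chromosome 6, 122727809 to 122801640, minus strand), did separate them. It was at 0.766, 1.14 and 1.35 RPKM in SIX2+ libraries, against 6.7, 6.91 and 7.54 in SIX2- libraries, and at 0.617, 0.725 and 0.486 in GFP+ libraries, against 11.1, 8.25 and 11.3 in GFP- libraries. The highest positive library, at 1.35, was below the lowest negative library, at 6.69, and the log2 fold changes were -1.96 ± 0.19 (adjusted p = 2.96e-06) and -2.79 ± 0.19 (6.41e-08). Slc2a13 (HMIT), which carries myo-inositol with protons, followed the same order, at 0.223, 0.234 and 0.155 in SIX2+ libraries, against 3.94, 3.95 and 4.67 in SIX2- libraries, and at 0.241, 0.27 and 0.242 in GFP+ libraries, against 6.79, 7.11 and 6.8 in GFP- libraries. Its log2 fold changes were -2.10 ± 0.27 (adjusted p = 4.13e-05) and -2.66 ± 0.27 (3.18e-06), and the calls of both genes held in each alternative. Slc2a13 passed the filter only through groups other than SIX2+ and GFP+, so the direction of its calls is no finding. At E14.5 both genes were at higher values in the Tdt+ libraries without a call. Slc2a3 was at 7.7 and 9.05 in Tdt+ libraries, against 4.35 and 5.87 in Tdt- libraries (0.62 ± 0.26, adjusted p = 0.203), and Slc2a13 was at 8.38 and 7.18, against 3.16 and 5.5 (0.75 ± 0.29, 0.175).

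Among the other sugar carriers, Slc2a2 (GLUT2), the basolateral glucose exit of the proximal tubule, was at 0.0427, 0.034 and 0 RPKM in SIX2+ libraries, against 2.68, 2.03 and 0.751 in SIX2- libraries (-1.39 ± 0.28, adjusted p = 0.00194). Its call in GFP+ over GFP- cells (-0.78 ± 0.28, 0.0459) was lost without any 1 of the 6 GFP-sorted libraries, with adjusted p between 0.0838 (without GFP- replicate 1) and 0.126 (without GFP- replicate 2), and with a pseudocount of 5 (0.166), no filter (0.0609) or quantile normalisation (0.467). Slc2a10 (GLUT10), mutated in a human disorder of arterial walls, was at 2, 1.05 and 1.19 in GFP+ libraries, against 5.22, 3.81 and 4.5 in GFP- libraries (-1.20 ± 0.25, 0.00206), and was not called in SIX2+ over SIX2- cells (-0.31 ± 0.25, 0.449). Slc2a5 (GLUT5), the fructose carrier, had its highest values in the progenitor fractions, 1, 1.02 and 1.63 in SIX2+ libraries, against 0.501, 0.432 and 0.392 in SIX2- libraries, and 0.911, 0.795 and 1.08 in GFP+ libraries, against 0.349, 0.218 and 0.185 in GFP- libraries. It reached 1 RPKM only in the SIX2+ libraries and GFP+ replicate 3, and passed the filter through these. It could not be called lower in SIX2+ over SIX2- cells, so the direction of that call is no finding. It was called higher in both sorts (adjusted p = 0.0352 and 0.0254), but the first call was lost without any 1 of the 6 antibody-sorted libraries, with adjusted p between 0.0559 (without SIX2+ replicate 1) and 0.154 (without SIX2+ replicate 3), after rescaling to TPM (0.0693) and with a pseudocount of 0.1 (0.17). The second was lost without GFP+ replicate 1 (0.062) or 3 (0.0855) or GFP- replicate 2 (0.0753) or 3 (0.0696), and with a pseudocount of 0.1 (0.0618). Slc2a12 was at 0.42 and 0.473 in Tdt+ libraries, against 2.02 and 1.84 in Tdt- libraries (-1.02 ± 0.22, 0.0304), a call lost with no filter (0.0639) or quantile normalisation (0.306). Of its exonic length 9.61% overlaps Tbpl1 on the opposite strand. Slc2a4 (GLUT4, the insulin-responsive carrier) and Slc2a8 had highest group means of 11 (Tdt+ cells) and 11.7 (SIX2+ cells) and were not called.

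In the Slc5 family of sodium-coupled carriers only 2 of 11 members reached the threshold, and neither was called. Slc5a3, which takes up myo-inositol as an osmolyte, was at 3.2, 4.09 and 2.44 RPKM in SIX2+ libraries, against 2.8, 2.16 and 2.02 in SIX2- libraries, and at 2.66, 1.84 and 2.83 in GFP+ libraries, against 2.81, 2.87 and 2.32 in GFP- libraries. Both pairs of fractions overlapped. It was at 3.33, 9.03 and 2.95 in unsorted NZC, at 1.64 and 2.07 in the Tdt+ libraries and at 2.45 and 4.17 in the Tdt- libraries. Slc5a6, the biotin and pantothenate carrier, was at 3.24 to 6.09 across the sorted E16.5 libraries. The renal glucose carriers stayed below the threshold, Slc5a2 (SGLT2) included.

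The Slc6 family, sodium- and chloride-coupled carriers of amino acids and related molecules, had 7 of 17 members at the threshold. Slc6a6, the taurine carrier, had the highest mean of them in every group but SIX2- cells, where Slc6a8 did. It was at 16.9, 19.3 and 21.5 RPKM in SIX2+ libraries, against 15.5, 14.4 and 17.6 in SIX2- libraries, and at 28.3, 20.1 and 30.5 in GFP+ libraries, against 22.6, 17.2 and 22.2 in GFP- libraries. It was at 31.6 and 13.9 in Tdt+ libraries, against 42.8 and 31.7 in Tdt- libraries, and was not called in any comparison (adjusted p = 0.322, 0.173 and 0.256). Without GFP+ replicate 2 it was called higher in GFP+ cells (0.0412), and without Tdt+ replicate 1 lower in Tdt+ cells (0.00441). Slc6a8, the creatine carrier, was at 8.4, 8.55 and 15.6 in GFP+ libraries, against 13.7, 13.1 and 15.9 in GFP- libraries (-0.41 ± 0.19, 0.119), and was called lower with the replicate block (0.0321) and without GFP+ replicate 3 (0.00373). Slc6a13, a GABA carrier, was listed at 0 in both Tdt+ libraries, against 1.79 and 1.53 in the Tdt- libraries, and was called lower (adjusted p = 0.00767, 0.0907 after quantile normalisation). In the E16.5 libraries Slc6a13 was at 1.48 to 2.23 in SIX2+, 0.84 to 3.52 in SIX2-, 1.66 to 2.4 in GFP+ and 0.657 to 1.11 in GFP- libraries. The GFP fractions did not overlap, and the difference missed the threshold (0.68 ± 0.28, 0.0761).

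Slc6a18, a neutral amino acid carrier of the tubule brush border, was at 0.0415, 0.0248 and 0.0157 RPKM in SIX2+ libraries, against 2.1, 1.28 and 0.455 in SIX2- libraries. The fractions did not overlap. The fit takes its spread from the scatter within groups, and unsorted NZC had 1.09, 5.56 and 0.586. The adjusted p was 0.0656 (limma). It was 0.00183 with NZC library 2, the highest, left out of the fit, and 0.0349 without SIX2- replicate 3. Slc6a17, a vesicular amino acid carrier known from neurons, was at 1.85, 1.34 and 2.86 in GFP+ libraries, against 1.31, 0.836 and 0.972 in GFP- libraries, and was called higher (0.54 ± 0.19, 0.0396), with a log2 fold change of 0.35 without GFP+ replicate 3. Without GFP+ replicate 1 or 3, or GFP- replicate 2 or 3, the adjusted p was 0.0754, 0.186, 0.137 and 0.0904, and after rescaling to TPM it was 0.091. Slc6a9 (the glycine carrier GLYT1) and Slc6a15 had highest group means of 8.36 (Tdt+ cells) and 1.17 (Tdt- cells) and were either not tested or not called, and 27.8% of the exonic length of Slc6a9 overlaps Ccdc24 on the opposite strand.

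The Slc7 family, amino acid carriers many of which pair with a glycoprotein heavy chain, had 10 of 15 members at the threshold. Slc7a5 (LAT1), the carrier of large neutral amino acids in growing cells, was at 20.6, 20.2 and 24.8 RPKM in SIX2+ libraries, against 16.9, 21.5 and 22.4 in SIX2- libraries, and at 27.3, 20.5 and 22.9 in GFP+ libraries, against 19.3, 16 and 18.7 in GFP- libraries. It was at 23.4 and 18.4 in Tdt+ libraries, against 31.2 and 23.2 in Tdt- libraries, and was not called (adjusted p = 0.771, 0.182 and 0.432). Its heavy chain partner Slc3a2, no member of these families, was at 35.6 to 56.4 over the sorted E16.5 libraries. Slc7a6, which exchanges cationic for neutral amino acids and has the CpG-rich upstream stretch shown above, had group means between 16.47 (GFP- cells) and 24 (Tdt- cells). Its difference in SIX2+ over SIX2- cells was 0.31 ± 0.12 (adjusted p = 0.0673, 0.0325 with the replicate block).

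Slc7a1 (CAT1), which takes up arginine and lysine in dividing cells (chromosome 5, 148327410 to 148399904, minus strand), was higher in the nephron progenitor fractions. It was at 8.94, 9.67 and 10.1 RPKM in SIX2+ libraries, against 4.34, 5.09 and 6.22 in SIX2- libraries (0.78 ± 0.22, adjusted p = 0.017), and at 13.1, 7.95 and 12.8 in GFP+ libraries, against 5.82, 4.79 and 5.11 in GFP- libraries (0.95 ± 0.22, 0.00392). No values overlapped in either sort. The first call was lost without SIX2+ replicate 2 (0.0522) or 3 (0.0563) or SIX2- replicate 1 (0.0814) or 2 (0.0528), and after rescaling to TPM (0.0565). At E14.5 Slc7a1 was at 7.15 and 5.92 in Tdt+ libraries, against 11.9 and 15.5 in Tdt- libraries, and its close relative Slc7a2 was at 3.25 and 1.81, against 5.79 and 6.46. Neither passed the threshold (adjusted p = 0.061 for Slc7a1 and 0.0658 for Slc7a2), though both were called lower without Tdt+ replicate 1 (0.0166 for Slc7a1 and 0.00719 for Slc7a2).

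Slc7a7 and Slc7a8 form the basolateral exits for cationic and neutral amino acids in the proximal tubule, and both were lower in nephron progenitors. Slc7a7 (chromosome 14, 54369442 to 54417780, minus strand) was at 1.2, 0.811 and 0.801 RPKM in SIX2+ libraries, against 5.12, 4.84 and 7 in SIX2- libraries (-1.77 ± 0.22, adjusted p = 3.09e-05), and at 0.788, 1.04 and 0.953 in GFP+ libraries, against 6.33, 6.64 and 9.5 in GFP- libraries (-2.12 ± 0.22, 3.98e-06). In the Foxd1-lineage cells it was at 8.99 and 11.3, against 1.92 and 2.7 in Tdt- libraries, and it was the 1 member called higher there (1.76 ± 0.27, 0.00697, and 0.078 with no filter). The fractions did not overlap in any of the 3 sorts. Slc7a7 is also known from macrophages. The 10 leukocyte markers summed to 11.7 and 16.9 RPKM in the Tdt+ libraries, against 42.7 and 119 in the Tdt- libraries, with Ptprc and Tyrobp listed at 0 in both Tdt+ libraries. They summed to 10.3 to 16.46 in SIX2+ libraries, against 98.0 to 136 in SIX2- libraries, and to 2.83 to 14.9 in GFP+ libraries, against 92.2 to 136 in GFP- libraries, and their part in the Slc7a7 difference of these sorts was not tested. Of its exonic length 7% overlaps Oxa1l on the opposite strand. Slc7a8 was at 0.272, 0.211 and 0.275 in SIX2+ libraries, against 1.93, 1.57 and 1.91 in SIX2- libraries (-1.16 ± 0.17, 0.000129), and at 0.256, 0.152 and 0.185 in GFP+ libraries, against 2.44, 2.13 and 2.3 in GFP- libraries (-1.46 ± 0.17, 1.15e-05). It was at 2.04 and 1.5 in Tdt+ libraries, against 2.13 and 3.5 in Tdt- libraries, and was not called there (0.383). Slc7a3, Slc7a4, Slc7a9 (the apical cystine carrier) and Slc7a13 had highest group means of 1.67 (Tdt+ cells), 1.25 (SIX2+ cells), 1.1 (SIX2- cells) and 1.56 (unsorted NZC) and were either not tested or not called.

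In the Slc9 family of sodium/proton exchangers 5 of 9 members reached the threshold. Slc9a9, an exchanger of endosomes, was at 0.408, 0.438 and 0.456 RPKM in SIX2+ libraries, against 2.14, 2.39 and 1.03 in SIX2- libraries (-0.96 ± 0.23, adjusted p = 0.00572, and 0.155 after quantile normalisation). It passed the filter only through groups other than SIX2+ and GFP+, so the direction of this call is no finding. Slc9a5 had its highest mean, 7.9, in Tdt+ cells, and missed the threshold in GFP+ over GFP- cells (-0.78 ± 0.32, 0.0786), where the replicate block called it lower (0.0356), as did leaving out NZC library 2 (0.00665) or GFP+ replicate 3 (0.0465). Slc9a8, of the Golgi, was at 5.15 to 9.18 over the sorted E16.5 libraries and was not called. Slc9a3, the brush border exchanger that recovers most filtered sodium, was below the threshold in every group.

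The Slc12 family, the cation-chloride cotransporters, had 7 of 9 members at the threshold and held the member with the largest positive difference. Slc12a2 (NKCC1), which brings sodium, potassium and chloride into cells on their basolateral side, was at 56.8, 54.3 and 34.3 RPKM in SIX2+ libraries, against 12.4, 11.9 and 12.9 in SIX2- libraries. It was at 140.5, 88.4 and 104 in GFP+ libraries, against 19.9, 17.4 and 17.3 in GFP- libraries. The lowest progenitor library, at 34.3, was above the highest negative library, at 19.9, and the log2 fold changes were 1.85 ± 0.20 (adjusted p = 1.1e-05) and 2.52 ± 0.20 (3.72e-07), called in each of the 15 alternatives run. In Foxd1-lineage cells it was at 15.3 and 14.2, against 42.2 and 55.2 in Tdt- libraries, and was called lower (-1.65 ± 0.23, 0.0052, and 0.0549 with no filter). The Tdt- libraries had 117 and 96.6 RPKM of Six2. Unsorted NZC lay between, at 47.4, 32 and 37.2. Wnk4, a kinase that activates this cotransporter through the kinases Stk39 and Oxsr1, was at 24.2, 22.9 and 32.1 in SIX2+ libraries, against 5.01, 5.12 and 8.4 in SIX2- libraries, at 26.9, 24.6 and 37.6 in GFP+ libraries, against 4.87, 3.62 and 4.91 in GFP- libraries, and at 7.45 and 4.09 in Tdt+ libraries, against 22.1 and 13.4 in Tdt- libraries. Its log2 fold changes were 1.95 ± 0.24, 2.48 ± 0.24 and -1.47 ± 0.34 (adjusted p = 3.28e-05, 2.42e-06 and 0.0363).

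The potassium-chloride cotransporters of this family, which move chloride out of cells, differed among themselves. Slc12a4 (KCC1), of wide distribution, was at 7.43, 7.74 and 9.33 RPKM in SIX2+ libraries, against 15, 13.9 and 18 in SIX2- libraries, and at 8.05, 7.28 and 11.2 in GFP+ libraries, against 19.5, 15.4 and 19 in GFP- libraries. It was called lower in both (-0.86 ± 0.29, adjusted p = 0.0469, and -0.96 ± 0.29, 0.0221), with no overlap of values. The first call was lost without any 1 of the 6 antibody-sorted libraries, with adjusted p between 0.0671 (without SIX2+ replicate 3) and 0.137 (without SIX2- replicate 3), and under a pseudocount of 0.1 (0.0559), no filter (0.0787), TPM (0.105) and quantile normalisation (0.0532). The second was lost without GFP+ replicate 1 (0.0658) or 2 (0.0818) or GFP- replicate 1 (0.0722) or 3 (0.0603). Slc12a7 (KCC4) was at 15, 12.4 and 19.8 in GFP+ libraries, against 7.86, 7.72 and 9.71 in GFP- libraries, and was called higher (0.81 ± 0.18, 0.00287). In SIX2+ libraries it was at 12.6, 15.4 and 15.7, against 8.52, 11.1 and 11.5 in SIX2- libraries (0.46 ± 0.18, 0.0788). Slc12a5 (KCC2), best known from neurons, was at 2.21, 1.59 and 4.47 in GFP+ libraries, against 1.14, 0.765 and 0.817 in GFP- libraries (0.91 ± 0.23, 0.00783, with 0.60 and 0.0348 without GFP+ replicate 3), and at 1.97, 2.23 and 2.95 in SIX2+ libraries, against 1.03, 1.05 and 1.42 in SIX2- libraries (0.64 ± 0.23, 0.0608). Slc12a9 had its highest group mean, 8.38, in Tdt- cells and was not called. Slc12a1 (NKCC2), the salt carrier of the thick ascending limb, was at 0 to 1.03 over the sorted E16.5 libraries and was not called.

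Sorted by role, the tubule carriers were set beside the markers of their cells, library by library. The 13 apical members summed to 0.30 to 0.71 RPKM in SIX2+ libraries, against 21.7, 12.3 and 4.71 in SIX2- libraries. They summed to 0.33 to 0.98 in GFP+ libraries, against 3.74 to 5.53 in GFP- libraries, and to 0.53 and 0.67 in Tdt+ libraries, against 0.79 and 3.86 in Tdt- libraries. Over the same libraries the 18 proximal tubule markers that are no members summed to 5.27 to 7.35 in SIX2+, 101, 109 and 53.7 in SIX2-, 11.0 to 12.9 in GFP+, 33.5 to 44.8 in GFP-, 7.71 and 10.5 in Tdt+, and 25.4 and 46.3 in Tdt- libraries. The 9 basolateral members, Slc7a7 among them, summed to at most 1.62 in SIX2+ libraries, against at least 11.6 in SIX2- libraries. Their sum was at most 1.63 in GFP+ libraries, against at least 11.3 in GFP- libraries. At E14.5 their sum was in the reverse order of the markers, at 11.8 and 13.2 in Tdt+, against 5.47 and 8.33 in Tdt- libraries. That order rests on Slc7a7 alone, at 8.99 and 11.3 in Tdt+, against 1.92 and 2.7 in Tdt- libraries. Without Slc7a7 the sum was lower in Tdt+ libraries, and 5 of the 9 were listed at 0 in both. All 22 proximal tubule members, Slc7a7 included, summed to 12.4 and 13.8 in Tdt+ libraries, against 6.26 and 12.2 in Tdt- libraries. Hnf4a, a transcription factor of the proximal tubule, was at 0.102, 0.0751 and 0.0842 in SIX2+ libraries, against 11.1, 11.3 and 4.19 in SIX2- libraries (-3.08 ± 0.37, adjusted p = 2.4e-05). Being near 0 in SIX2+ cells, it could have been called only lower there. Among the 3 SIX2- libraries, replicate 3 had the least of the apical carriers, of the markers and of Hnf4a and the most Six2. The part of proximal tubule cells in the members' differences was not tested. Of the 13 apical members 3 passed the filter at E16.5, and of the 9 basolateral members 4. Of the 13 apical members, 5 (Slc5a12, Slc6a18, Slc6a19, Slc7a13 and Slc9a3) were listed at 0 in both Tdt+ libraries. In the deeper Tdt- libraries Slc6a18 was at 0.0223 and 0.343, and Slc5a12, Slc6a19, Slc7a13 and Slc9a3 were at 0 to 0.062. Of the 14 members for growth and housekeeping uptake, 13 were tested at E16.5, with 2 higher and 2 lower in SIX2+ cells and 3 higher and 2 lower in GFP+ cells, which is 30.8% and 38.5% called, near the 24.2% and 32.9% of all genes. Their summed level was 193 to 211 in SIX2+ libraries, against 145 to 171 in SIX2- libraries, and 221 to 301 in GFP+ libraries, against 150.3 to 176 in GFP- libraries.

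**Figure D4:**
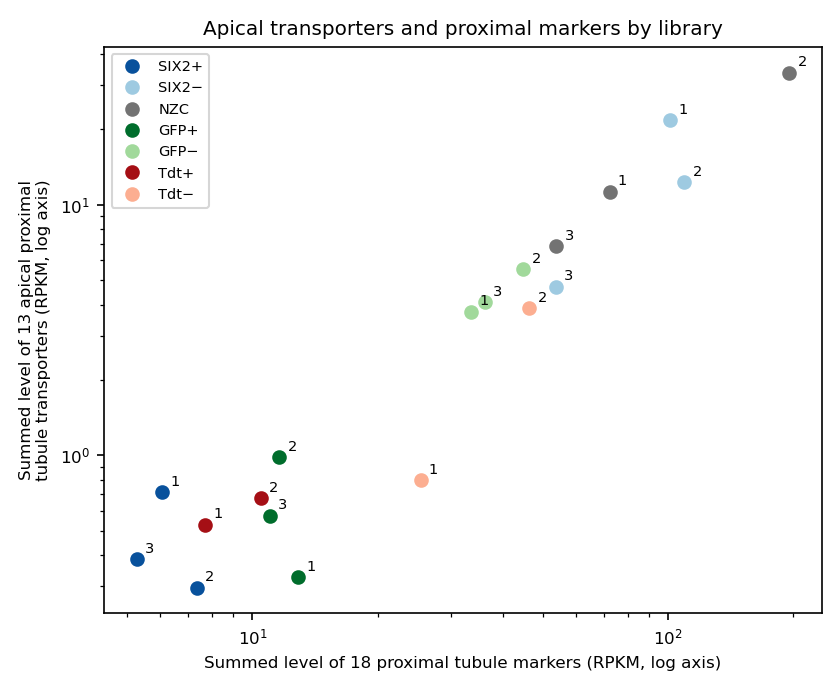
Summed level of the 13 apical proximal tubule members (vertical, RPKM, log axis) against the summed level of 18 proximal tubule markers that are no members (horizontal, RPKM, log axis) in each of the 19 libraries, numbered by replicate and coloured by group. All SIX2+, GFP+ and Tdt+ libraries lie below 1 on the vertical axis, and NZC library 2 is at the upper right with 33.7 and 196.

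Genes that work with these carriers gave 2 higher and 9 lower of 16 tested in SIX2+ over SIX2- cells, and 3 higher and 6 lower of 16 in GFP+ over GFP- cells, beside 24.2% and 32.9% of all genes called. Pdzk1, Tmem27 and Fxyd2 are near 0 in SIX2+ cells and could have been called only lower there. Pdzk1, a scaffold of the brush border that binds Slc34a1, was at 0.223, 0.0976 and 0.103 RPKM in SIX2+ libraries, against 18.8, 13.9 and 4.67 in SIX2- libraries (-3.38 ± 0.40, adjusted p = 2.21e-05). Tmem27 (collectrin), a partner of the apical neutral amino acid carriers, had a log2 fold change of -2.75 ± 0.46 (0.000441), and Fxyd2, a subunit of the sodium pump, one of -3.29 ± 0.65 (0.00176). Slc9a3r1 (NHERF1), another scaffold of the same kind, went the other way, with a log2 fold change of 0.87 ± 0.21 in SIX2+ over SIX2- cells (adjusted p = 0.00779). In the GFP sort it was at 48.1, 58.4 and 48.2 in GFP+ libraries, against 10.3, 12.5 and 10.5 in GFP- libraries (2.12 ± 0.21, 3.44e-06). In Tdt+ cells Slc9a3r1 was lower, at 6.03 and 5.8, against 27.3 and 23.9 in Tdt- libraries (-1.94 ± 0.23, 0.00278), and it and Wnk4 were the 2 called of the 15 partners tested at E14.5.

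In Tdt+ over Tdt- cells 1 of the 37 members tested was called higher, Slc7a7, and 3 lower, Slc12a2, Slc6a13 and Slc2a12. That is 10.8%, beside 8.44% of the 12364 genes tested (1.22% higher, 7.21% lower). Slc6a13 and Slc2a12 were under 1 RPKM in both Tdt+ libraries and passed the filter only through Tdt- cells. They could not be called higher, so the direction of their calls is no finding. The median log2 fold change of the members was -0.39, beside -0.04 for all genes, and rescaling to TPM moved the median of all genes to -0.29. The count of lower members was 14 without Tdt+ replicate 1, which added Slc2a8, Slc6a6, Slc6a15, Slc7a1, Slc7a2, Slc7a6, Slc9a9, Slc12a7, Slc12a9, Slc22a17 and Slc22a23, and 1 without either Tdt- replicate. The E14.5 and E16.5 tables were normalised separately, and no test was made across them.

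The antibody and reporter enrichments were compared as (SIX2+ over SIX2-) minus (GFP+ over GFP-). None of the 44 members passed limma's test, beside 18 of 12798 genes (0.141%, with 0.0469% higher and 0.0938% lower). At an unadjusted p under 0.05 stood 4 members. Slc2a3 (0.83 ± 0.27, adjusted p = 0.372) and Slc2a10 (0.90 ± 0.36, 0.693) were positive, and Slc12a2 (-0.67 ± 0.29, 0.82) and Slc22a12 (-0.81 ± 0.35, 0.831) negative. For Slc34a1 the difference was -1.23 ± 0.66 (adjusted p = 0.9998).

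Unsorted NZC were set beside the mean levels of the SIX2+ and SIX2- fractions sorted from such cells. Of the 50 members, 23 lay between the fractions, 12 above both and 15 below both, and without NZC library 2 the counts were 27, 9 and 14. Slc2a1 is an example of the last kind, at 28.5, 17 and 26.7 in NZC, and Slc6a6, at 24.6, 18.8 and 23.1, of the second. Unsorted NZC are no simple mix of the fractions. Their erythroid genes summed to 445 to 4721 RPKM, against at most 2.29 in SIX2+ and 23.6 in SIX2- libraries. These counts are a description without a test, and the part of such cells in them was not tested.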

How the data were processed

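The authors deposited 2 gene tables, 1 for the 15 E16.5 libraries and 1 for the 4 E14.5 libraries. Per the submitters' processing notes the tools were TopHat2 and Partek and the build mm10. The file titles say TPM, but the deposited values behave as RPKM: column sums differ between libraries (CV 8.01% and 13.8%) and even out once weighted by gene length (2.70% and 2.94%). No read counts were used, and depth was estimated from the smallest steps of low values. RNA kits were RecoverAll and RNeasy Micro and the library kit a stranded mRNA kit, per the labels' protocols.

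Differences were tested with limma 3.58.1 (R 4.3.3, trend) on log2(RPKM + 1), which understates the fold of low genes. Genes needed at least 1 RPKM in 3 libraries (E16.5) or 2 (E14.5), and p-values were adjusted by Benjamini-Hochberg over all genes tested. The 5 E16.5 groups shared 1 estimate of spread (10 residual degrees of freedom), and the E14.5 fit had 2. On simulated data with 12432 genes the SIX2 comparison recovered 82% of changes of 1 log2 unit and 99% of 2 units. The simulated Tdt comparison, on 12015 genes, recovered 58% and 95%. Changes were simulated only in genes with a mean log2(RPKM + 1) above 3, so these shares do not cover members near 1 RPKM.

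Same-numbered samples deviated together in the SIX2 sort (r = 0.64, 0.28 and 0.68 over genes) and the GFP sort (0.45, 0.44 and 0.39). The labels do not say that equal numbers mark pairs. The main fits left these numbers out, so their p-values ignore any pairing. The replicate block was run as an alternative. Values per library were due for the 10 members per comparison with the largest change among those called without overlap and with a mean of at least 5, and for the top member of each family. Other members were added after their values were seen. Members and lists were chosen with earlier results of these data known. The tables hold 27 names turned into dates each, which match no member, and Slc22a16, listed at E14.5 only, was left out. Figures were drawn with matplotlib 3.10.9. A few genes that enter the counts are not reported here by name.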

Additional observations from a re-analysis of the deposited data

Results flagged for a closer look

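Unsorted NZC entered no tested comparison of the report. In NZC library 2, which has an estimated 3130000 reads, 8 members stood at 1 RPKM or more and at least 2 times above every one of the other 14 E16.5 libraries. Slc12a1 was at 8.63 RPKM, against at most 1.97 elsewhere, and Slc5a3 was at 9.03, against at most 4.09. Slc6a18 was at 5.56, against at most 2.10, Slc7a13 at 4.07, against at most 0.567, and Slc22a13 at 2.73, against at most 0.258. Slc7a12 was at 1.68, against at most 0.0520, Slc22a3 at 1.47, against at most 0.579, and Slc5a8 at 1.21, against at most 0.553. These values rest on an estimated 9.14 (Slc7a12) to 308 (Slc5a3) reads.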

How the results depend on the processing

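The number of members called depended on the settings, and no member's fold change turned round past the threshold in any. Members higher in SIX2+ cells (4) numbered 7 with no filter or with the replicate block, 2 after rescaling to TPM, 9 after quantile normalisation, 8 with NZC library 2 not in the fit or with only the compared groups fitted, and 2 to 3 with 1 library left out. Members lower in SIX2+ cells (10) numbered 20 with no filter, 5 among values of at least 5, 17 with TPM and 8 to 10 with 1 library left out. Members higher in GFP+ cells (7) numbered 4 among values of at least 5, 12 after quantile normalisation and 5 to 8 with 1 library left out, and those lower (10) numbered 6 among values of at least 5, 16 with TPM, 6 after quantile normalisation and 5 to 9 with 1 library left out. In Tdt+ cells the 1 higher member was lost with no filter (0) and joined by another with the replicate block (2), and held with 1 library left out (1). The 3 lower members numbered 1 among values of at least 5, 7 with TPM, 1 after quantile normalisation, 9 with the replicate block and 1 to 14 with 1 library left out. The Tdt numbers share only a number (2 pairs, r = 0.40), and where 1 sample is left in an arm its spread is assumed to be that of the other arm. No member differed between the antibody and reporter enrichments in any setting.

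Scaling moved the split of calls over all genes too. In SIX2+ over SIX2- cells 1070 genes were higher and 2031 lower, with 857 and 2205 after TPM and 1572 and 1572 after quantile normalisation. In GFP+ over GFP- cells the split was 2033 and 2176, with 1392 and 2528 after TPM and 2338 and 1941 after quantile normalisation. In Tdt+ over Tdt- cells it was 151 and 892, with 59 and 1057 after TPM and 240 and 485 after quantile normalisation. Of the values of single members recomputed, 583 of 631 kept their call in the SIX2 sort, 559 of 629 in the GFP sort and 356 of 382 in the Tdt sort. Fold changes of low members moved with the pseudocount: for Slc34a1 in SIX2+ over SIX2- cells the log2 value was -4.79 with 0.1 and -1.13 with 5, and for Slc2a13 -3.82 and -0.82. The replicate block changed no member's call in the SIX2 and GFP sorts beyond those given in the report. Depth limits the Tdt+ libraries most among those compared.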

Other observations

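Genes of amino acid stress and synthesis listed beside the Slc7 carriers (10, of which 8 were tested in each sort) gave 2 higher and 0 lower in SIX2+ cells and the same counts in GFP+ cells, 25% called in each, beside 24.2% and 32.9% of all genes. Phgdh, the first enzyme of serine synthesis, had a mean of 209.8 ± 20.6 RPKM over the SIX2+ libraries and 115 ± 14.9 over the SIX2- libraries (SD, n = 3 each), a log2 fold change of 0.86 ± 0.16 (limma, adjusted p = 0.000897). It averaged 193 ± 16.9 in GFP+ cells and 64.1 ± 8.93 in GFP- cells (1.58 ± 0.16, 2.91e-06). None of the 8 was called in Tdt+ over Tdt- cells.

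Of 14 genes of glycolysis and the hypoxia response, listed beside the Slc2 carriers, 2 were higher and 2 lower in SIX2+ cells, 3 higher and 1 lower in GFP+ cells, and 0 higher and 1 lower in Tdt+ cells, so 28.6%, 28.6% and 7.14% were called, beside 24.2%, 32.9% and 8.44% of all genes. Slc16a3, a carrier that exports lactate, was at 21.8, 25.2 and 35.9 RPKM in SIX2+ libraries, against 8.79, 11 and 16.1 in SIX2- libraries (1.15 ± 0.28, adjusted p = 0.00682). Egln3, an oxygen-sensing hydroxylase, was at 0.15, 0.22 and 0.216 in SIX2+ libraries, against 6.76, 8 and 11.1 in SIX2- libraries (-2.98 ± 0.23, 3.62e-07). Among 5 osmolyte genes none was called in SIX2+ over SIX2- cells by limma (2 at an unadjusted p under 0.05), 1 was higher and 1 lower in GFP+ over GFP- cells, and 1 was lower in Tdt+ over Tdt- cells. Hspa4l, a heat shock protein, was the higher one (1.77 ± 0.26, 0.000113). Nfat5, the transcription factor that answers high salt, had a log2 fold change of -0.99 ± 0.29 in GFP+ over GFP- cells (adjusted p = 0.017) and of -1.26 ± 0.23 in Tdt+ over Tdt- cells (0.0138).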
